A study of Mus musculus with 8 samples.

Results

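Neural crest cells are the 359 cells that carry the neural crest label in the combined annotation of a single-cell transcriptome table of mouse chimeras, out of 28723 cells in 8 libraries. Of these, 12 were Eomes-KO cells (of 8566 Eomes-KO cells) and 347 were WT host cells (of 20157 WT host cells). The label came from mapping each cell onto an atlas of mouse gastrulation and early organogenesis. Cells were taken by this label and not by their numbers in either genotype.

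The chimeras were made by injecting tdTomato+ Eomes-KO embryonic stem cells into wild-type C57BL/6 blastocysts. The Eomes-KO cells descend from a male line in which CRISPR removed the exons between introns 1 and 5 of Eomes, a T-box transcription factor gene, and 4 independent clones were used, each in an embryo pool of its own. Embryos were collected at E8.5, sorted into tdTomato+ (Eomes-KO) and tdTomato− (WT host) cells, and sequenced as 4 libraries of each genotype. No library of injected wild-type stem cells was analysed here, so the loss of Eomes and the origin of a cell from an injected stem cell cannot be told apart. Libraries are named below by genotype and by their number of cells in the deposited table, which was 602, 1153, 3346 and 3465 for Eomes-KO and 2414, 3791, 5819 and 8133 for WT host. The table used here holds fewer cells of each genotype than the study states it retained, and how the missing cells were labelled was not analysed here.

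The neural crest forms at the border between the neural plate and the surface ectoderm. Its cells leave the dorsal neural tube by an epithelial-to-mesenchymal transition and migrate, and in the head they give rise to much of the facial skeleton as well as to peripheral neurons, glia and pigment cells. Foxd3 is a forkhead factor of early crest, Tfap2b an AP-2 factor of the crest and surface ectoderm, Sox10 a SOX factor of migrating crest and its glia, and Dlx2 a homeobox factor of cranial crest entering the pharyngeal arches. These 4 markers were not analysed here because the table holds labels, scores and quality measures of cells rather than gene counts, so the neural crest name rests on the atlas labels alone. For the same reason all results are numbers and properties of cells, and none is a level of expression.

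Depth differed between the libraries. The median UMI count (unique molecular identifiers, the RNA molecules counted in a cell) ran from 8901 to 32559.5 in the Eomes-KO libraries and from 5124 to 11002 in the WT host libraries. Across libraries, 80 cell barcodes occurred more than once, and 1 neural crest cell had such a barcode. Every pair of libraries of 1 genotype differed in composition beyond sampling noise (largest chi-square p = 2.29e-16 over 12 pairs), so each library counted as a sample.

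Neural crest cells were about 12-fold rarer among Eomes-KO cells than among WT host cells. As a share of epiblast-derived cells (all cells but those of the extraembryonic endoderm and extraembryonic ectoderm labels), the Eomes-KO libraries held 0%, 0.087%, 0.209% and 0.115% neural crest in the libraries of 602, 1153, 3346 and 3465 cells. The WT host libraries held 0.752%, 1.57%, 1.69% and 2.29% in those of 2414, 3791, 5819 and 8133 cells. The genotypes did not overlap, and the group means were 0.103% ± 0.0862 and 1.58% ± 0.634 (SD, n = 4 each).

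**Figure D1:**
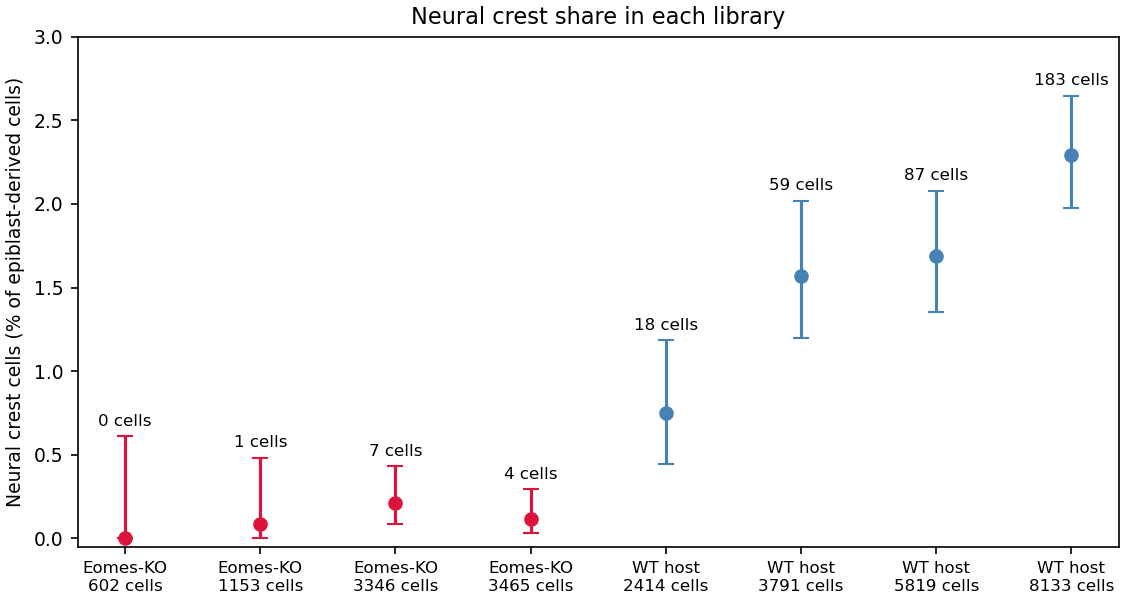
Neural crest cells as a percentage of epiblast-derived cells, with 1 point for each library (Eomes-KO in red on the left, WT host in blue on the right) and exact 95% binomial intervals as bars. The 4 Eomes-KO libraries lie at 0.209% or below and the 4 WT host libraries at 0.752% or above, and the number of neural crest cells stands over each bar.

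The log2 fold change of the share was −3.56 ± 0.60 (SE; edgeR quasi-likelihood test, adjusted p = 8.0e-05), an 11.8-fold lower share in Eomes-KO. In the same test 16 of 33 cell types passed as lower in Eomes-KO, which is 48.5% of those tested, and 69.7% passed in either direction, so a call as such is common here. Pooled over libraries, the share was 0.140% in Eomes-KO (12 of 8561 cells, exact 95% interval 0.0724% to 0.245%) and 1.80% in WT host (347 of 19284 cells, 1.62% to 1.997%). These intervals cover counting error only.

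The smallest Eomes-KO library gave only an upper bound on the share. It held 0 neural crest cells among 601 epiblast-derived cells, which allows a share of up to 0.499% (3 cells of the total). The upper bound of its two-sided exact 95% interval was 0.612%, below the lowest WT host share of 0.752%, whose own interval began at 0.446%. Without it the log2 fold change was −3.41, and over the 8 fits that each left out 1 library it ran from −4.08 to −3.33. Among WT host libraries the share varied by more than counting error. The library of 2414 cells had an interval of 0.446% to 1.19% and the library of 8133 cells one of 1.98% to 2.65%.

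The other 6 ectodermal types of the combined annotation had smaller falls, no call or a rise. Some finer ectodermal labels fell more than neural crest, as given below. Brain cells (the forebrain, midbrain and hindbrain label) were also a smaller share of epiblast-derived cells in Eomes-KO, with a log2 fold change of −1.66 ± 0.30 (SE; edgeR, adjusted p = 0.00014) and 311 Eomes-KO and 2060 WT host cells. In the same edgeR test spinal cord, at −0.42 (adjusted p = 0.29), surface ectoderm, at 0.22 (adjusted p = 0.56), and rostral neurectoderm, at 0.28 (adjusted p = 0.66), did not pass. Caudal neurectoderm had 1.27 (adjusted p = 0.060) and amniotic ectoderm rose by 3.32 (adjusted p = 0.00012). Within the 7 ectodermal types alone, the neural crest log2 fold change was −3.15 ± 0.63 (SE; edgeR, adjusted p = 0.0035).

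Set against the brain, from whose dorsal edge cranial crest emerges, neural crest cells were again scarcer in Eomes-KO. There were 0, 3.70, 5.51 and 3.01 neural crest cells per 100 brain cells in the Eomes-KO libraries of 602, 1153, 3346 and 3465 cells. The WT host libraries of 2414, 3791, 5819 and 8133 cells had 6.62, 11.1, 19.2 and 22.8. The genotypes did not overlap, though the highest Eomes-KO library and the lowest WT host library were close.

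The mean log2 ratio to brain, with 0.5 cells added to each count, was 1.81 lower in Eomes-KO, a 3.51-fold difference (two-sided exact permutation test over 70 arrangements of 4 against 4 libraries, p = 0.029, adjusted p = 0.029 over 5 ratios). This p is the smallest such a test can give. The call was lost when 1 cell was added to each count in place of 0.5 (adjusted p = 0.057, exact permutation test) and among cells with a doublet score under 0.25 (adjusted p = 0.086, exact permutation test), with the direction kept in both.

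Each of the other ectodermal denominators gave a larger estimate than brain did. This order follows from the shares of the denominators given above, where brain fell most, and is not separate evidence on neural crest. Relative to spinal cord, the neural tube of the trunk, there were 0 to 12.1 neural crest cells per 100 cells in Eomes-KO libraries and 21.7 to 60.0 in WT host libraries. Relative to surface ectoderm, the epithelium on the other side of the neural plate border, there were 0 to 3.95 in Eomes-KO libraries and 14.6 to 26.0 in WT host libraries. Mean log2 ratios differed by −3.03 for spinal cord and −3.70 for surface ectoderm.

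Rostral neurectoderm, the anterior neural plate before brain regions are distinct, gave 0 to 16.3 neural crest cells per 100 in Eomes-KO libraries and 20.5 to 159.5 in WT host libraries, with a log2 difference of −3.70. Caudal neurectoderm, its posterior counterpart, gave 0 to 38.9 in Eomes-KO libraries and 105.9 to 983.3 in WT host libraries, with a log2 difference of −4.87. Caudal neurectoderm counts were small, at 16 to 47 cells in Eomes-KO libraries and 6 to 48 in WT host libraries. In all 4 ratios the genotypes did not overlap (exact permutation test, adjusted p = 0.029 each). The 5 ratios share the same neural crest counts and are not independent of each other.

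**Figure D2:**
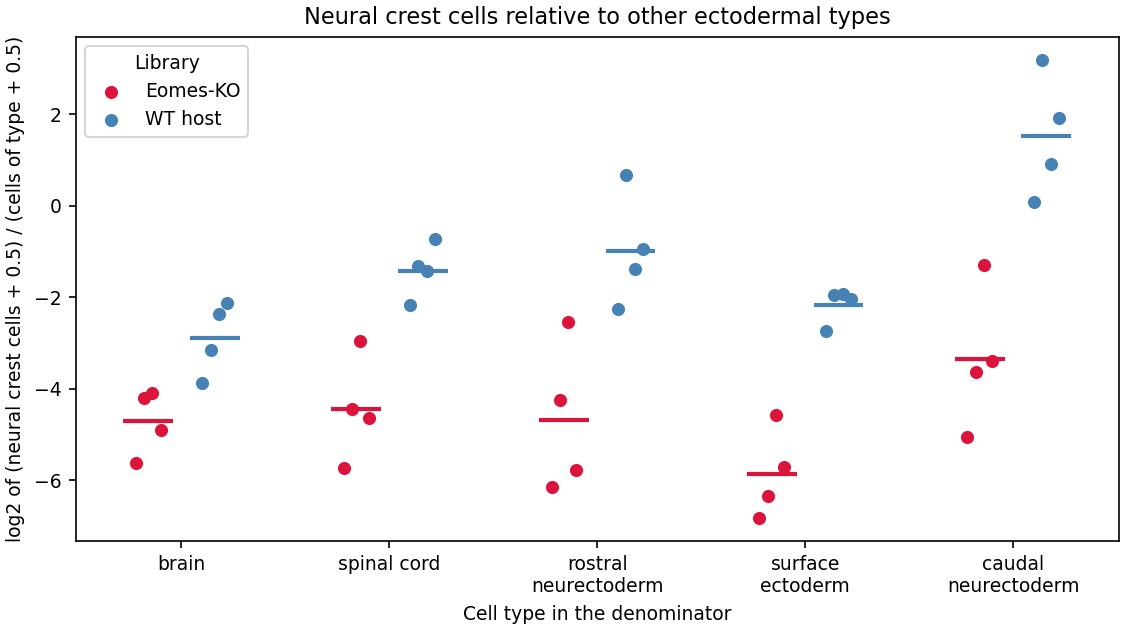
Log2 ratio of neural crest cells to cells of 5 other ectodermal types, with 0.5 added to each count, 1 point for each library (Eomes-KO left, WT host right within each type) and a bar at the mean of 4 libraries. The red and blue points do not overlap for any denominator, and the difference between means is −1.81 for brain and −4.87 for caudal neurectoderm.

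Neural crest cells mapped to the latest atlas stages, and neural tube cells mapped there less often in most Eomes-KO libraries. A cell takes its mapped stage from the same nearest atlas cells as its label, so stage and label are not independent measures. Neural crest cells mapped only to E8.25 and E8.5, with 9 of 12 Eomes-KO cells (75%, exact 95% interval 42.8% to 94.5%) and 320 of 347 WT host cells (92.2%, 88.9% to 94.8%) at E8.5. Both intervals pool cells over libraries and cover counting error only. By library, 0 of 1, 6 of 7 and 3 of 4 Eomes-KO neural crest cells mapped to E8.5 in the libraries of 1153, 3346 and 3465 cells. The WT host libraries gave 13 of 18, 50 of 59, 87 of 87 and 170 of 183. Libraries of the 2 genotypes overlapped.

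Brain cells mapped to E8.5 less often in 3 of the 4 Eomes-KO libraries than in any WT host library. The share was 54.2%, 18.5%, 22.8% and 18.8% in the Eomes-KO libraries of 602, 1153, 3346 and 3465 cells, and 33.1%, 41.6%, 47.7% and 44.8% in the WT host libraries of 2414, 3791, 5819 and 8133 cells. The difference in means did not pass the test (−13.2 percentage points, exact permutation test, p = 0.17, adjusted p = 0.26), and the Eomes-KO library of 602 cells, with 24 brain cells, stood apart. Spinal cord cells at E8.5 made up 8.04% to 30.8% in Eomes-KO libraries and 34.9% to 48.6% in WT host libraries, and surface ectoderm cells at E8.5 made up 10.7% to 18.0% in Eomes-KO libraries and 25.2% to 36.8% in WT host libraries. Rostral and caudal neurectoderm had 0 cells at E8.5 in either genotype.

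Counting only cells mapped to E8.5 narrowed the difference to the neural tube. Neural crest cells per 100 brain cells were then 0, 0, 20.7 and 12 in the Eomes-KO libraries of 602, 1153, 3346 and 3465 cells. In the WT host libraries of 2414, 3791, 5819 and 8133 cells they were 14.4, 22.6, 40.3 and 47.2. The Eomes-KO library of 3346 cells now lay above the lowest WT host library, so the genotypes overlapped, and both Eomes-KO libraries at 0 had few such brain cells (13 and 5).

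Among cells mapped to E8.5 the log2 ratio to brain differed by −1.50 (exact permutation test, p = 0.057, adjusted p = 0.086 over 3 ratios), and that to spinal cord by −1.96 (exact permutation test, p = 0.11, adjusted p = 0.11). The ratio to surface ectoderm differed by −2.98 and did not overlap, at 0 to 21.4 per 100 cells in Eomes-KO libraries and 41.9 to 96.7 in WT host libraries (exact permutation test, p = 0.029, adjusted p = 0.086). The share of neural crest among all epiblast-derived cells mapped to E8.5 remained lower in Eomes-KO, at 0% to 0.768% against 2.75% to 7.55% in WT host libraries (log2 fold change −3.31 ± 0.68, SE; edgeR, adjusted p = 1.2e-05). The restriction to E8.5 was chosen after the values were seen, and the part of mapped stage in the difference was not tested beyond it.

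**Figure D3:**
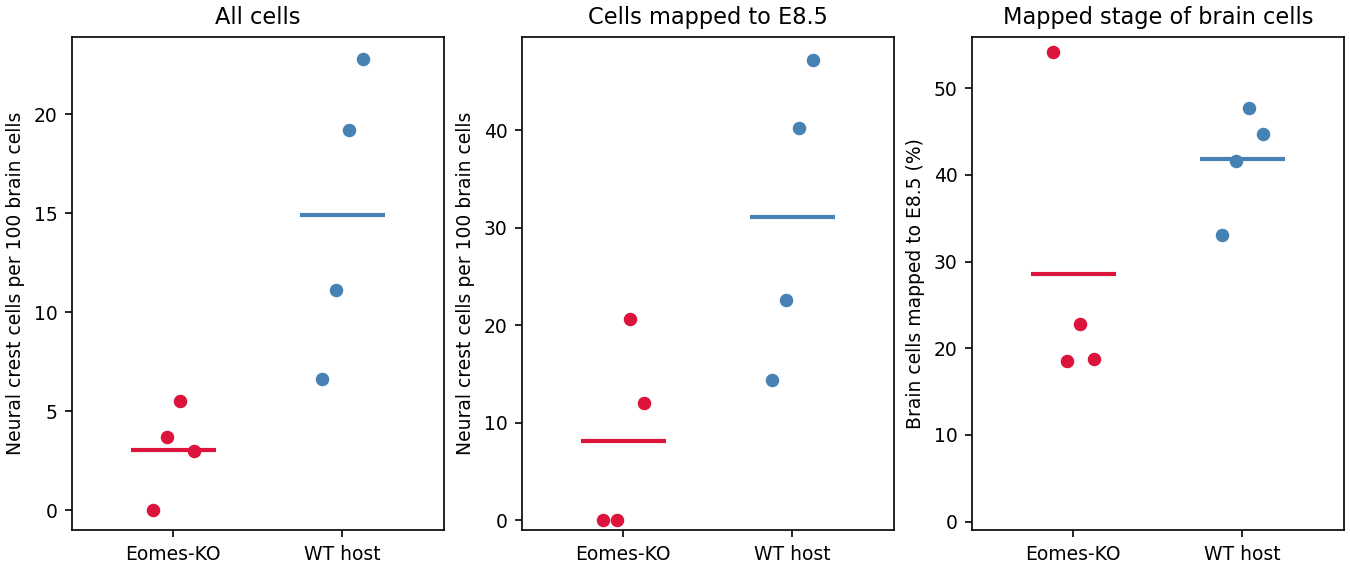
Left and middle, neural crest cells per 100 brain cells among all cells and among cells mapped to E8.5; right, the percentage of brain cells mapped to E8.5, with 1 point for each library (Eomes-KO left, WT host right) and a bar at the mean of 4 libraries. The genotypes are apart among all cells (5.51 or below in Eomes-KO, 6.62 or above in WT host) and overlap among cells mapped to E8.5, where 1 Eomes-KO library reaches 20.7.

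The finer atlas labels placed every neural crest cell in 1 class. All 12 Eomes-KO and all 347 WT host neural crest cells carried the extended label for migratory neural crest, and all carried the neural crest label in the original atlas annotation as well. None had a dorsal neural or any other extended label, so no comparison of classes within the neural crest could be made.

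The migratory label reached beyond the neural crest cells into the brain. It was held by 17 Eomes-KO and 392 WT host cells, of which 5 Eomes-KO and 41 WT host cells were called brain in the combined annotation. A further 3 WT host cells were called paraxial mesoderm and 1 was called spinal cord. The neural crest label thus covered 12 of 17 migratory-label cells in Eomes-KO (70.6%, exact 95% interval 44.04% to 89.7%) and 347 of 392 in WT host (88.5%, 84.9% to 91.5%), intervals that overlap and cover counting error only.

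Brain cells with the migratory label had weaker support for it. Their mean extended score, the fraction of neighbouring atlas cells with that label, was 0.467 in Eomes-KO and 0.598 in WT host. Mapped to E8.5 were 0 of 5 such Eomes-KO cells, against 14 of 41 in WT host. Counting all migratory-label cells, 0% to 0.269% of epiblast-derived cells in Eomes-KO libraries and 0.960% to 2.51% in WT host libraries were migratory neural crest. The log2 fold change was then −3.29 ± 0.52 (SE; edgeR over 69 extended labels, adjusted p = 1.6e-05), in a test where 63.8% of labels passed as lower.

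Dorsal neural progenitors, which in the embryo adjoin the crest before it leaves the neural tube, were also fewer in Eomes-KO. Dorsal hindbrain progenitors numbered 4 in Eomes-KO, all in the library of 3346 cells, and 84 in WT host (log2 fold change −3.13 ± 0.75, SE; edgeR, adjusted p = 0.0010). Dorsal spinal cord progenitors numbered 48 in Eomes-KO and 354 in WT host (log2 fold change −1.54 ± 0.40, SE; edgeR, adjusted p = 0.0020). These calls stand beside the 63.8% of extended labels that passed as lower. Ventral labels of the neural tube fell too, with 49 Eomes-KO and 500 WT host ventral hindbrain progenitors (log2 fold change −2.16 ± 0.44, SE; edgeR, adjusted p = 0.00023). Hindbrain floor plate, the ventral midline, had 2 Eomes-KO and 158 WT host cells (log2 fold change −5.07, edgeR, adjusted p = 1.1e-05). Ventral forebrain progenitors had 1 Eomes-KO and 52 WT host cells (log2 fold change −4.19, edgeR, adjusted p = 0.00082). Outside the neural tube, epidermis had 2 Eomes-KO and 66 WT host cells (log2 fold change −3.54, edgeR, adjusted p = 0.0012). The falls of floor plate, ventral forebrain and epidermis exceeded in estimate the −3.29 of migratory-label cells in the same test.

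Per 100 dorsal neural cells of any level there were 0, 9.09, 41.2 and 21.1 neural crest cells in the Eomes-KO libraries of 602, 1153, 3346 and 3465 cells. The WT host libraries of 2414, 3791, 5819 and 8133 cells had 36.0, 61.5, 82.9 and 97.3. The genotypes overlapped in 1 pair of libraries, and the log2 ratio differed by −1.82 (exact permutation test, p = 0.057), without passing the threshold. This comparison was added after the values were seen.

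On the atlas map the Eomes-KO neural crest cells lay in and beside the region of the WT host cells. Their median first map coordinate was −0.39, 0.57 and 1.23 in the Eomes-KO libraries of 1153 (1 cell), 3346 and 3465 cells. In the WT host libraries of 2414, 3791, 5819 and 8133 cells it was 0.61, 1.27, 1.38 and 1.44, so libraries of the genotypes overlapped. The 12 Eomes-KO cells had 11 distinct nearest atlas cells and the 347 WT host cells had 226, of which 4 were shared between genotypes. For 0 of 12 Eomes-KO cells was the nearest atlas cell also that of a WT host cell of another type. That count was close to fixed in advance, because the label comes from the same neighbouring atlas cells. Of the WT host neural crest cells, 1 had a second map coordinate above 0 and 2 had a first map coordinate below −3. This held for 0 Eomes-KO neural crest cells in either case.

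**Figure D4:**
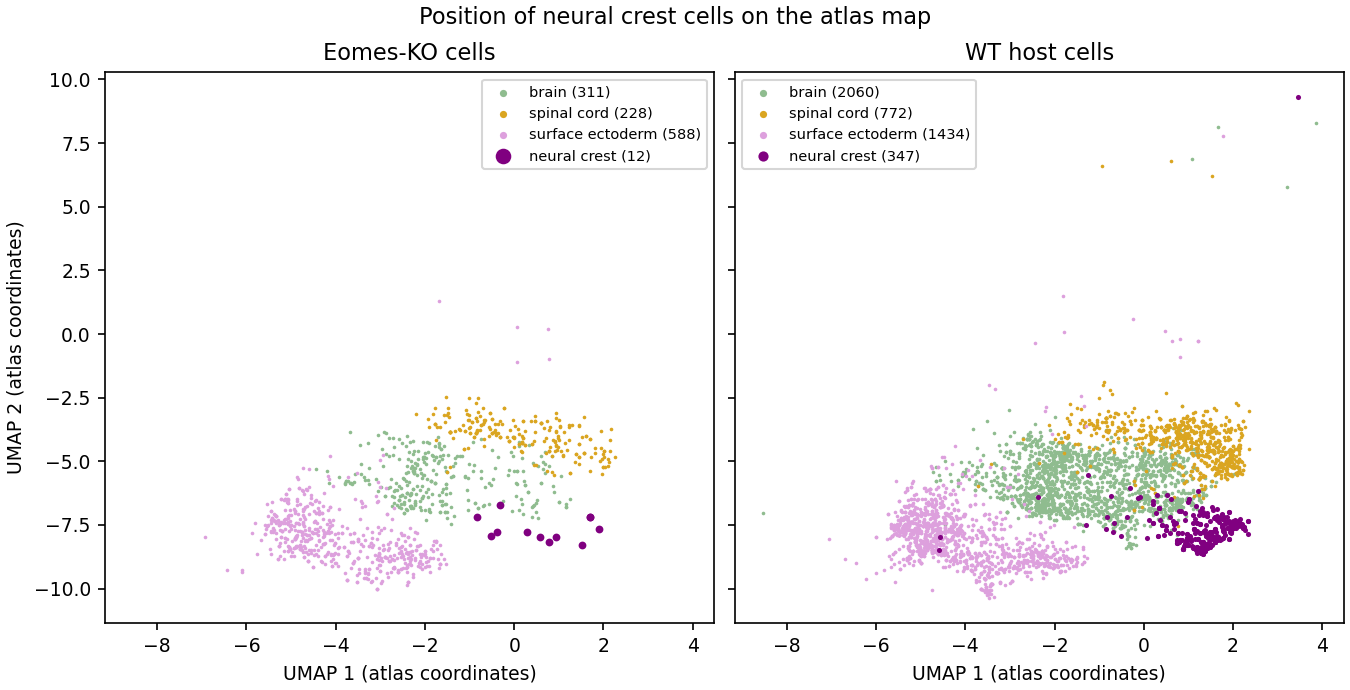
Position on the atlas map of neural crest cells with brain, spinal cord and surface ectoderm cells, in Eomes-KO (left) and WT host (right); each point is a cell, placed at its nearest atlas cell, and the numbers of cells are in the legends. The 12 Eomes-KO neural crest cells lie in and beside the main cluster of the 347 WT host cells, and neural crest points are drawn larger for Eomes-KO.

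The label score, the fraction of 15 nearest atlas cells that carry the assigned label, was high in both genotypes. The mean score of the original label was 0.857 and 0.817 in the Eomes-KO libraries of 3346 and 3465 cells, and 0.533 for the single cell of the library of 1153 cells. It was 0.859, 0.924, 0.979 and 0.947 in the WT host libraries of 2414, 3791, 5819 and 8133 cells. Every Eomes-KO mean lay below every WT host mean, though the lowest WT host library (0.859) lay next to the highest Eomes-KO library (0.857).

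A score of 1 was reached by 5 of 12 Eomes-KO cells (41.7%, exact 95% interval 15.2% to 72.3%) and 258 of 347 WT host cells (74.4%, 69.4% to 78.9%). Both intervals pool cells over libraries and cover counting error only, so they do not compare the genotypes. The lowest score was 0.467 in Eomes-KO and 0.400 in WT host. Only libraries with at least 3 neural crest cells were tested, which left 2 Eomes-KO and 4 WT host libraries, for which the smallest two-sided exact p is 0.13. The mean original score differed by −0.09 (exact permutation test, p = 0.13, adjusted p = 0.27), the extended score by −0.06 (p = 0.13, adjusted p = 0.27, same test) and the stage score by −0.07 (p = 0.53, adjusted p = 0.64, same permutation test). No within-crest comparison of the genotypes could therefore reach the threshold.

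Compared with brain cells of the same library, neural crest cells were mapped with more agreement on the finer label. The mean extended score was higher in neural crest than in brain in 6 of 6 libraries with at least 3 neural crest cells. The difference was 0.178 to 0.213 in Eomes-KO and 0.220 to 0.272 in WT host libraries (mean 0.226). A label score counts the same atlas cells that gave the label, so neural crest against brain is a description here and not a test. Brain cells held 14 extended labels and neural crest cells 1. The stage score was also higher in 6 of 6 libraries (mean difference 0.165). In contrast, the original score was higher in 2 of 6 libraries (mean difference 0.012). Neural crest cells also mapped to E8.5 more often than brain cells in 6 of 6 libraries with at least 3 neural crest cells. The difference was 56.2 to 62.9 percentage points in Eomes-KO and 39.1 to 52.3 in WT host libraries. In the Eomes-KO library of 1153 cells, with 1 neural crest cell, it was −18.5 percentage points. The exact sign-flip permutation test over the 6 libraries gave an adjusted p of 0.031. It cannot decide the question, because mapped stage comes from the same atlas cells as the label.

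The median UMI count of neural crest cells was higher in the Eomes-KO libraries, a difference that did not pass the test. The median was 28284, 19584 and 12576.5 UMIs per neural crest cell in the Eomes-KO libraries of 1153 (1 cell), 3346 and 3465 cells. It was 9149, 11426, 11002 and 5077 in the WT host libraries of 2414, 3791, 5819 and 8133 cells. Over all cells, the library medians of the same Eomes-KO libraries were 19296, 16995 and 8901, the last of them below the 10758 and 11002 of the WT host libraries of 3791 and 5819 cells. For neural crest cells all 3 Eomes-KO medians lay above all WT host medians (exact permutation test of the libraries of 3346 and 3465 cells against WT host, p = 0.13, adjusted p = 0.33).

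Genes detected followed, with medians of 3552 to 5144 in Eomes-KO and 2018 to 3222 in WT host libraries. Relative to brain cells of the same library, the neural crest median was higher by 0.15 and 0.55 log2 units of UMIs in the 2 Eomes-KO libraries tested and by 0.04 to 0.26 in WT host libraries, thus higher in 6 of 6 libraries (mean 0.22, exact sign-flip permutation test, p = 0.031, adjusted p = 0.10). With at least 10000 UMIs required of every cell, 11 Eomes-KO and 101 WT host neural crest cells were left, and the share still differed by a log2 fold change of −3.06 ± 0.79 (SE; edgeR, adjusted p = 0.00031).

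**Figure D5:**
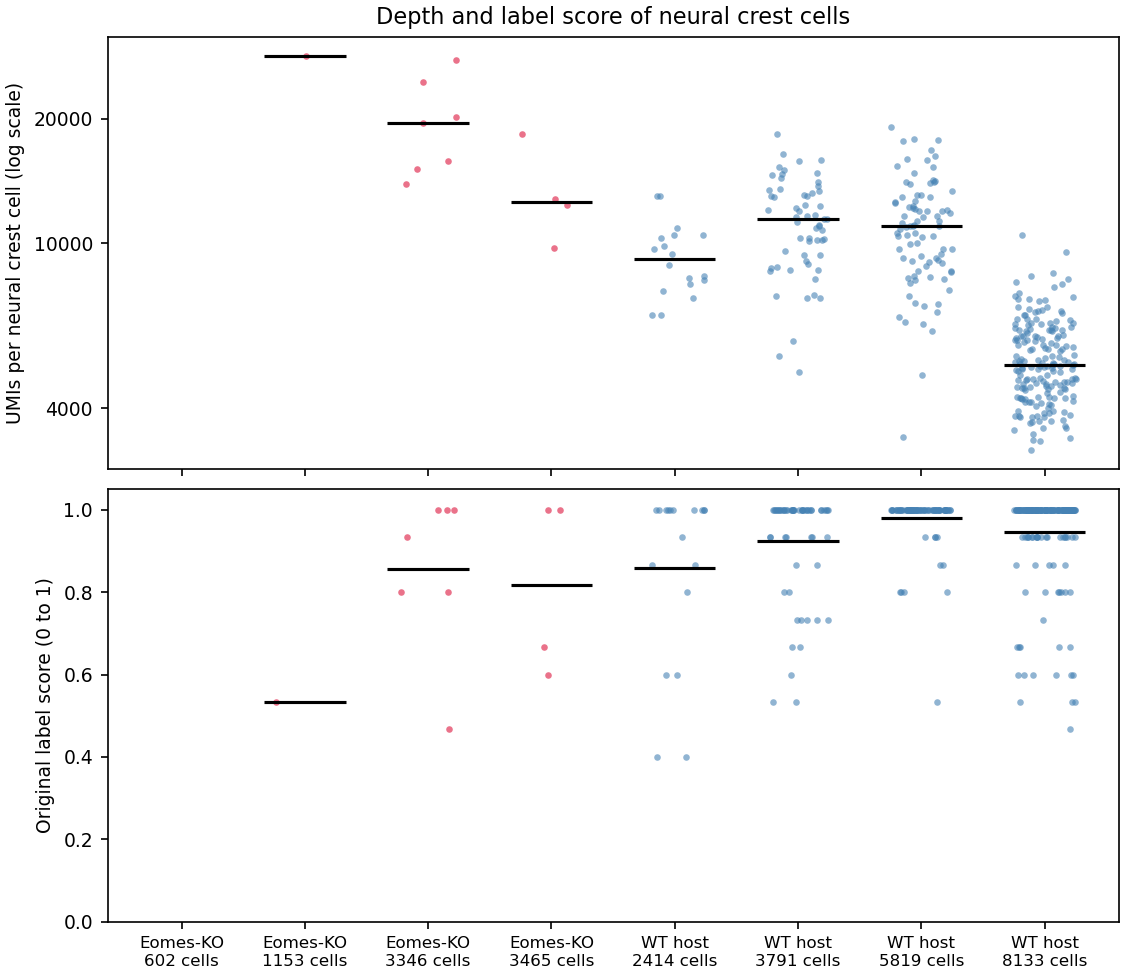
Top, UMIs per neural crest cell on a log scale with the library median as a bar; bottom, the original label score with the library mean as a bar; each point is a cell, with Eomes-KO libraries in red on the left and WT host libraries in blue on the right. The Eomes-KO medians lie between 12576.5 and 28284 UMIs and the WT host medians between 5077 and 11426, and the library of 602 cells has no neural crest cell.

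The library medians of the remaining quality measures of neural crest cells overlapped between genotypes. The median mitochondrial percentage was 0.85 to 1.79% in Eomes-KO and 0.95 to 1.46% in WT host libraries, and the median ribosomal percentage 25.4 to 26.9% in Eomes-KO and 25.4 to 27.6% in WT host libraries. Relative to brain cells of the same library, the ribosomal percentage did not overlap in the libraries tested. The difference was −0.92 to −0.125 percentage points in Eomes-KO and 0.025 to 0.24 in WT host libraries (exact permutation test, p = 0.13, adjusted p = 0.67). This p is the smallest that these libraries allow. The doublet score, which rises with resemblance to a mix of 2 cells and had been cut at 0.5, had medians of 0.31, 0.13 and 0.26 in the Eomes-KO libraries of 1153, 3346 and 3465 cells. WT host medians were 0.315, 0.26, 0.24 and 0.20 in those of 2414, 3791, 5819 and 8133 cells.

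A doublet score of 0.25 or more was held by 3 of 12 neural crest cells in Eomes-KO, against 143 of 347 in WT host. Below 0.25 there were 0, 0, 5.83 and 1.68 neural crest cells per 100 brain cells in the Eomes-KO libraries of 602, 1153, 3346 and 3465 cells, and 3.0, 7.78, 19.9 and 23.9 in the WT host libraries of 2414, 3791, 5819 and 8133 cells. The Eomes-KO library of 3346 cells then lay above the WT host library of 2414 cells. Over all cell types a score of 0.25 or more was held by 33.8% to 66.3% of the cells in Eomes-KO libraries and 29.1% to 34.1% in WT host libraries, so this setting removed different parts of the libraries.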

How the data were processed

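The authors pooled about 4 embryos per clone at E8.5, sorted them by tdTomato and prepared 10x Genomics 3′ libraries. Per the submitters' processing notes, reads were aligned with Cell Ranger 6.0.1 to mm10. The deposited table gives, for each cell, the UMI count as a total without normalization, the number of genes, and the mitochondrial and ribosomal percent. Doublets had been filtered out by the authors at a score above 0.5, and the table keeps that score. For the original label the authors deposited the fraction of 15 neighbouring atlas cells sharing it, with a like score for the extended label and the stage. Labels were taken as deposited.

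A library's genotype came from the tdTomato status of its cells. Its name does not tell its pool, so the pool could not enter the tests. Cells entered the tests only as sums, medians or means per library, while some intervals pool cells over libraries. Cell numbers per label were tested with edgeR 4.0.16 (R 4.3.3, glmQLFit and glmQLFTest), with epiblast-derived cells as library size, no further scaling, a minimum of 10 cells for a label, and a Benjamini-Hochberg threshold of 0.05. Each standard error was obtained by dividing the log2 fold change by the root of F. The script was tested on simulated data. Ratios were tested by exact permutation, and differences from brain in quality, stage and score measures also by exact sign flips. Sets of tests were adjusted separately: 5 ratios, 3 ratios among cells mapped to E8.5, 6 stage measures and 6 score measures. Quality had 5 measures in neural crest and 5 relative to brain. The sign flips of the latter 5 formed a set of their own, as did those of the stage measures and those of the score measures. Within neural crest, libraries with at least 3 such cells were used. Intervals are Clopper-Pearson at 95%. Alternatives used TMM, DESeq2 1.42.0 and limma 3.58.1, other filters, and each library left out.

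Named cell types are the ectodermal types of the annotation and extended labels concerning crest or dorsal neural tube, with 3 ventral labels and epidermis added after their values were seen. Members, lists and tests were chosen with earlier results of these data known.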

Additional observations from a re-analysis of the deposited data

Results flagged for a closer look

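In 68 sets of 4 libraries examined, 5 had 1 library far from the other 3 by Dixon's criterion, against about 1 in 20 by chance. In the Eomes-KO library of 602 cells, 54.2% of brain cells mapped to E8.5, against 18.5% to 22.8% in the other Eomes-KO libraries. In the WT host library of 2414 cells there were 14.6 neural crest cells per 100 surface ectoderm cells, against 24.4 to 26.0 in the other WT host libraries. In the same library the mean mapped day of brain cells was 8.32, against 8.35 in each of the others. The Eomes-KO library of 3465 cells had a median mitochondrial percentage of 1.80% in brain cells, above the other Eomes-KO libraries. The WT host library of 5819 cells had a mean stage score of 0.682 in brain cells, below the other WT host libraries.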

How the results depend on the processing

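The lower share of neural crest in Eomes-KO kept its direction and its call under every alternative run, with log2 fold changes from −4.54 (DESeq2 ratio size factors, which moved the median of all types by −0.91) to −2.94 (doublet score under 0.25). DESeq2 poscounts factors moved that median by 0.62 and gave −2.95, and without 1 library the range was −4.08 to −3.33. The ratio to brain kept its direction but not its call with 1 cell added (−1.43), with a doublet score under 0.25 (−1.62) and among cells mapped to E8.5 (−1.50). Without 1 library it ran from −2.14 to −1.51, where 3 against 4 libraries allow no exact p below 0.057. The ratios to the other ectodermal types lost their calls with a doublet score under 0.25 (adjusted p = 0.071 each, exact permutation test).

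Within neural crest no difference between genotypes could pass, and some differences changed sign. With at least 10000 UMIs, or 10000 to 30000, the mapped day differed by 0.010 (−0.018 over all cells) and the percentage at E8.5 by 4.10, and the ribosomal percentage by −0.51. The stage score relative to brain differed by 0.018 and 0.016 in these settings. With the library of 1 neural crest cell added, the percentage at E8.5 relative to brain differed by −12.2, against 13.9 without that library. In the same setting the mapped day relative to brain differed by −0.0066, the mitochondrial percentage relative to brain by −0.068 and the ribosomal percentage by −0.22. Leaving out 1 library gave −0.074 to 0.0095 for the stage score relative to brain, −0.0059 to 0.392 for log2 UMIs relative to brain, −0.051 to 0.144 for the mitochondrial percentage relative to brain, −0.266 to 0.559 for the ribosomal percentage and −0.124 to 0.0063 for the doublet score. The causes of these sign changes were not tested. No value could be had with at least 10 neural crest cells per library, which no Eomes-KO library has. No paired analysis was possible because the library names do not tell the pool. With 12 Eomes-KO neural crest cells, differences within the neural crest are limited by cell number.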
